A study of Mus musculus with 4 samples.

Results

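The response to lipopolysaccharide (LPS) was measured in mouse dendritic cells in which the nuclear receptor gene Nr4a3 had been silenced with siRNA. It was taken as the log2 expression of a gene on the array of LPS-treated cells with NR4A3 siRNA minus that on the array of unstimulated cells with the same siRNA. The comparison used 2 of the 4 arrays of the study and all 19938 genes that had a probe set with 1 gene symbol, each at its brightest probe set. The other 2 arrays, of cells with a control siRNA without and with LPS, served only to show where the response differed.

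The cells were grown from whole bone marrow with 20 ng/mL GM-CSF, the cytokine commonly used to obtain dendritic cells from marrow, for 10 days. All 4 groups then received an siRNA by nucleofection, an electroporation method, and the stimulated groups received 100 ng/mL LPS 24 hours later and were harvested after 24 hours of stimulation. The groups were therefore unstimulated and LPS-treated cells with NR4A3 siRNA and unstimulated and LPS-treated cells with control siRNA, with 1 Affymetrix Mouse Gene 1.0 ST array each. On the strain the labels disagree, with C57BL/6 among the characteristics and BALB/c where the culture is described, and they give neither the age nor the number of the mice. H2-Ea, the E alpha chain of MHC class II that C57BL/6 mice are known to lack, stood at 13.52 and 13.48 on the arrays with NR4A3 siRNA, and the strain was not tested further. With 1 array a side there is no replicate check, so differences are described without a p-value and may hold the spread between cultures or arrays. The labels also do not say whether the arrays came from separate cultures, or how long unstimulated cells were kept before harvest; any part of a difference in culture time was not tested.

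LPS, a component of the outer membrane of Gram-negative bacteria, is handed by CD14 to the TLR4 and MD-2 receptor complex. The adaptor MyD88 then leads to NF-kB and MAP kinases and so to cytokine genes, while the adaptor TRIF leads to IRF3 and interferon-beta, whose receptor drives a later set of interferon-stimulated genes. Dendritic cells that sense LPS mature: they take up less antigen, present more peptide, display co-stimulatory ligands and acquire CCR7, which directs them to lymph nodes. NR4A3 is an orphan nuclear receptor and early response factor that binds the NBRE element as a monomer.

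The silenced gene was not absent from these cells. Nr4a3 stood at 7.15 without LPS and at 9.39 with LPS under its siRNA, a 4.71-fold higher level with LPS, against 11.21 and 11.77 under control siRNA. Nr4a2, a close relative that binds the same element, was 2.18-fold higher with LPS, from 7.48 to 8.60, against 7.79 and 9.79 under control siRNA. Nr4a1, the other relative, stood at 6.85 and 6.83. The LPS response described here is thus one with less Nr4a3 message at the outset and with a remainder that was larger on the LPS array.

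The arrays carried the defining genes of GM-CSF dendritic cells. Itgax, encoding CD11c, stood at 12.89 without LPS and 12.58 with LPS, the MHC class II gene H2-Aa at 13.04 and 12.73, and the invariant chain gene Cd74 at 13.47 and 13.38. Of 14 dendritic cell markers 13 passed the level filter, 6.66, which was the median of all genes over the 4 arrays. Flt3 did not, at 5.58 and 6.25, and the conventional dendritic cell factor Zbtb46 was just above it at 6.93 and 6.82. Macrophage genes were also present, with 13 of 16 past the filter, among them Csf1r (12.97 and 12.74) and Adgre1, which encodes F4/80 (11.25 and 13.07). B cell markers (0 of 10 past the filter), erythroid markers (0 of 6), NK cell markers (1 of 11), eosinophil markers (1 of 7) and T cell markers (2 of 11) were mostly dim on both arrays. Neutrophil markers had 5 of 16 past the filter, with Ly6g at 5.74 and 5.90, and mast cell and basophil markers 3 of 13. Other lists passed more often: monocyte markers with 10 of 10 and fibroblast and stroma markers with 7 of 11 (Col1a1 at 7.26 and 7.12). Plasmacytoid dendritic cell markers had 5 of 9, and megakaryocyte and progenitor markers 4 of 7, among them Pf4 at 12.76 and 12.59. Of all 19938 genes 10353 passed the filter, a share near those of the stroma, plasmacytoid and megakaryocyte lists. Passing alone therefore does not show that such cells were present. Single markers of other cells differed with LPS by 2-fold or more: the proteoglycan gene Dcn of stroma (7.06 and 10.31), the NK receptor gene Klrk1 (5.06-fold higher), Kit and Hdc of mast cells (4.34-fold and 2.53-fold higher), Cd5 (2.43-fold higher) and Cd2 (4.73-fold lower) of T cells, Cd34 of progenitors (2.21-fold lower) and Mmp8 of neutrophils (2.24-fold lower). So did Bst2 and Irf7 of the plasmacytoid list (6.56-fold and 7.21-fold higher). The part of these markers in the results was not tested. Levels between 4.21 and 14.22 spanned the range of both arrays, and gene medians were 6.67 without LPS and 6.65 with LPS. In such bulk RNA, fewer cells of a type and less RNA per cell cannot be told apart.

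More genes were higher than lower with LPS. Counting required a 2-fold or larger difference and a level at or above the filter on the brighter of the 2 arrays. By this rule 550 genes were higher with LPS, 2.76% of the 19938, and 281 were lower, 1.41%. The larger the fold, the more one-sided the counts were: at least 4-fold, 196 genes were higher and 33 lower, and at least 16-fold, 24 were higher and 3 lower. Over all genes the median difference was -0.02 and the median size of a difference 0.14 on the log2 scale, so most genes lay close to the same level on both arrays. Of the 550 higher genes 118 lay below the filter without LPS, as did 62 of the 281 lower genes with LPS, and the folds of those genes are approximate.

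**Figure D1:**
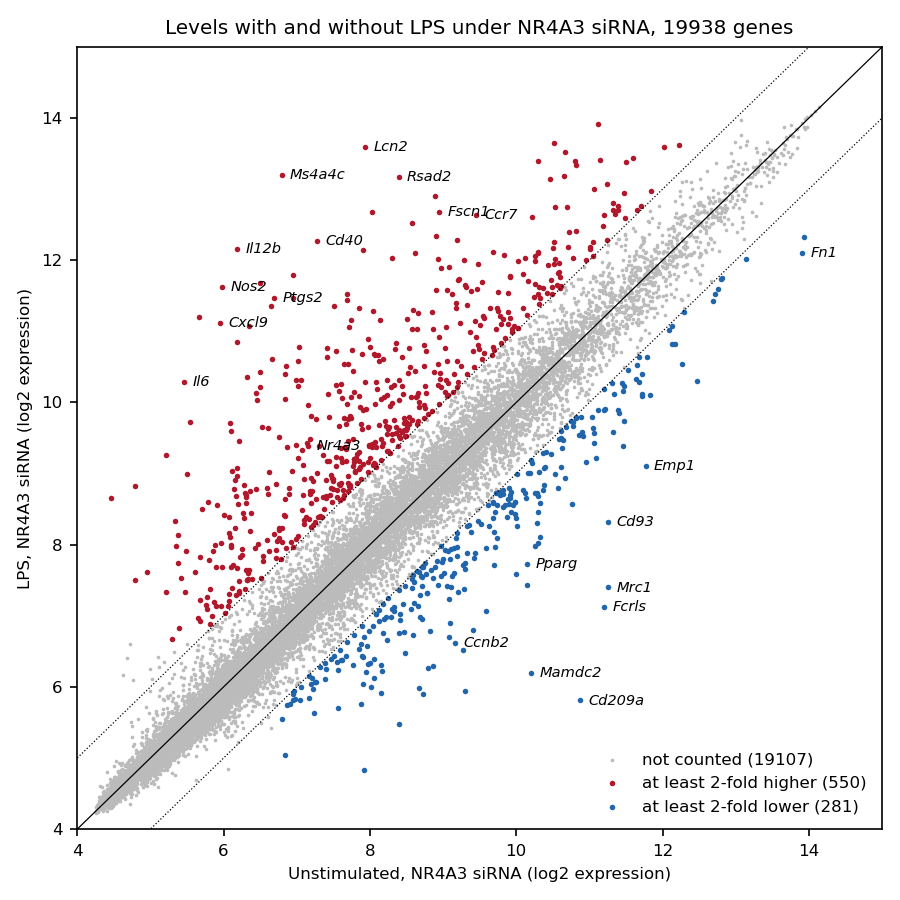
Level of each of 19938 genes (log2 expression) without LPS (x axis) and with LPS (y axis) in cells with NR4A3 siRNA, 1 array each. The solid line marks equal levels and the dotted lines 2-fold differences; 550 genes counted as higher are red, 281 counted as lower are blue, and the red points reach farther from the line than the blue ones.

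The genes with the largest upward differences were inflammatory and interferon-induced. Ms4a4c, a tetraspan membrane protein gene, stood at 6.79 without LPS and at 13.20 with LPS, an 84.9-fold higher level. Il12b, the p40 subunit of interleukin-12 and interleukin-23, went from 6.18 to 12.16 (62.9-fold), and Lcn2, the siderophore-binding protein lipocalin 2, from 7.93 to 13.60 (50.7-fold). Nos2, the inducible nitric oxide synthase, was 50.1-fold higher, from 5.98 to 11.63. These enzymes and secreted proteins serve bacterial defence and T cell priming, and each spanned most of the scale of the array. The sushi domain gene Susd2 (46.6-fold), the Schlafen gene Slfn4 (36.4-fold), the CXCR3 ligand Cxcl9 (35.9-fold) and the co-stimulatory receptor gene Cd40 (32.1-fold) made up the 8 genes past 32-fold. The next were Ifit2, Il6, Ptgs2, Rsad2, Gbp5, Ifit1, Cxcl11, Ifit3, Gbp4, Cmpk2, Ms4a6b and Iigp1, between 28.8-fold and 16.5-fold. Il12b, Nos2, Susd2, Slfn4, Cxcl9, Il6, Gbp5, Ifit1, Cxcl11, Ms4a6b and Iigp1 lay below the filter without LPS.

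The genes with the largest downward differences included several phagocyte receptors, along with enzymes and cyclins. Cd209a, a DC-SIGN-related C-type lectin, stood at 10.87 without LPS and at 5.81 with LPS, a 33.4-fold lower level. Fcrls, an Fc receptor-like scavenger gene, went from 11.21 to 7.12 (16.9-fold lower), Mamdc2 from 10.20 to 6.20 (just past 16-fold) and the mannose receptor gene Mrc1 from 11.26 to 7.40 (14.5-fold lower). Cd209d was 10.3-fold lower, although near-identical members of the Cd209 family could share probes. Those were all the genes at least 10-fold lower. After them came Serpinb10, the phagocyte receptor gene Cd93, Nxpe5, the coagulation factor subunit gene F13a1, the sodium-proton exchanger gene Slc9a9, the leukotriene enzyme gene Alox5, Emp1, the asialoglycoprotein receptor gene Asgr2, Klk1b9, the cyclin gene Ccnb2, Kcnj10, Ramp1, the lipid-sensing receptor gene Pparg, Gda and the cyclin gene Ccna2, between 8.51-fold and 5.17-fold lower. Klk1b9 is a kallikrein with many close copies. Cd209a, Mamdc2, Cd209d, Serpinb10, Nxpe5, F13a1, Slc9a9, Klk1b9, Ccnb2 and Ramp1 lay below the filter with LPS.

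**Figure D2:**
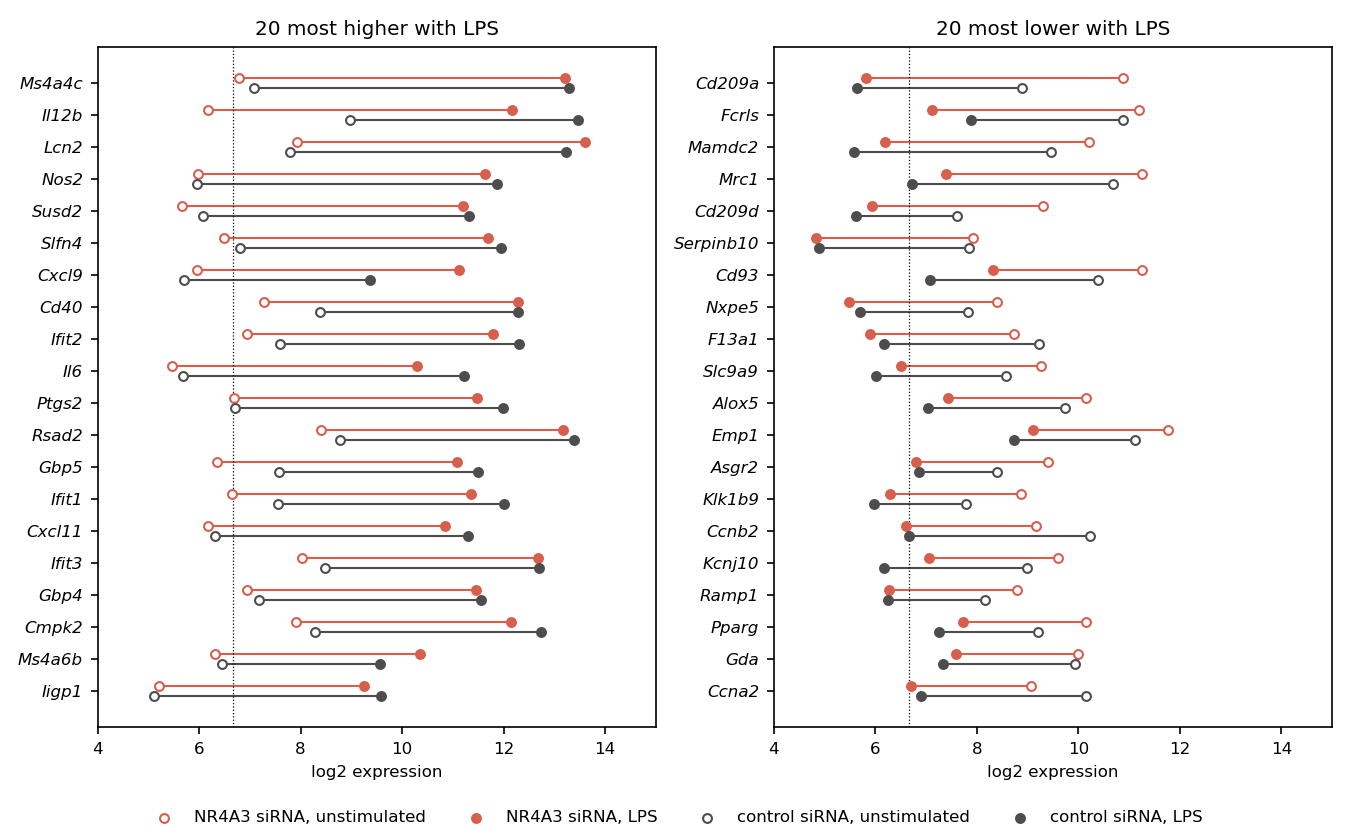
Levels (log2 expression, x axis) of the 20 genes most higher (left) and the 20 most lower (right) with LPS under NR4A3 siRNA, with open circles for unstimulated and filled circles for LPS-treated cells, red for NR4A3 siRNA and grey for control siRNA, 1 array each; the dotted line is the filter at 6.66. Each gene differed the same way under both siRNAs, and Il12b started at 6.18 with NR4A3 siRNA against 8.97 with control siRNA.

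The receptor complex and its adaptors differed little. Of 18 measured genes of the TLR4 pathway upstream of NF-kB, 2 were counted as higher and 0 as lower, and the median difference was 0.19. Tlr4 stood at 9.81 and 9.60, Ly96, which encodes MD-2, at 12.15 and 12.48, and Cd14 at 11.82 and 12.69. The 2 counted genes were Irak3, an inhibitor of the pathway that lacks kinase activity (10.43 and 11.55, 2.17-fold), and the kinase gene Ikbke (2.04-fold). Both lay near the threshold: 0 members were counted as higher with quantile normalization repeated and 1 with cyclic loess. Among 11 measured Toll-like receptor genes, with the TLR4 homologue Cd180 counted in, 3 were higher: Tlr3, a sensor of double-stranded RNA (2.74-fold), Tlr1 (2.68-fold) and its partner Tlr2 (2.04-fold). Tlr8 was lowest at -0.54.

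Among subunits, inhibitors and targets of NF-kB, 10 genes were higher. The list held 22 measured genes, 0 were counted as lower, and the median difference was 1.00. The signalling adaptor gene Traf1 stood at 7.74 without LPS and 10.07 with LPS (5.02-fold), and Cflar, a blocker of caspase-8, at 7.87 and 9.93 (4.17-fold). The inhibitor genes Nfkbib (2.70-fold), Tnfaip3 (2.44-fold) and Nfkbia (2.38-fold) followed. Tnfaip3 encodes the ubiquitin-editing enzyme A20, and Nfkbia and Nfkbib encode proteins that hold NF-kB in the cytoplasm. Of the subunits, Rel was 2.02-fold higher, Relb 1.84-fold and Nfkb2 1.82-fold, while Rela stood at 10.61 and 10.77. The members of the list with a negative difference were the deubiquitinase gene Otulin, Ikbkg and Nfkbid, at -0.06, -0.08 and -0.22.

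Promoters of the list held NF-kB motifs more often than promoters at large. The core GGANTTTCC, on either strand, was found in 18.5% of 27 windows of 300 bases, from 250 bases before to 50 after a gene start, against 1.3% of 32851 windows of all genes. A match describes the letters of a window and not binding. The RefSeq windows of the 2 members with the largest differences among those with a match are shown because they belong to negative regulators of the pathway, with the matches in capitals. The window of Tnfaip3 lies at chr10:19015361-19015660 on the minus strand of GRCm38.p6 with a match that starts at -24 from the gene start. The window of Nfkbia lies at chr12:55492598-55492897 on the minus strand, with matches that start at -178 and -29.
Tnfaip3: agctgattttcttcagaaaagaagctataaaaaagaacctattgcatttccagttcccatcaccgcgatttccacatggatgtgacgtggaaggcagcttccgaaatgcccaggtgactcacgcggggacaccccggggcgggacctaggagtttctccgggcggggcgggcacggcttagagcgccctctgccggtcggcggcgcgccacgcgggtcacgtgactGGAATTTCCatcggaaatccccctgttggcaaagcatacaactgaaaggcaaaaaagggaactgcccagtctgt
Nfkbia: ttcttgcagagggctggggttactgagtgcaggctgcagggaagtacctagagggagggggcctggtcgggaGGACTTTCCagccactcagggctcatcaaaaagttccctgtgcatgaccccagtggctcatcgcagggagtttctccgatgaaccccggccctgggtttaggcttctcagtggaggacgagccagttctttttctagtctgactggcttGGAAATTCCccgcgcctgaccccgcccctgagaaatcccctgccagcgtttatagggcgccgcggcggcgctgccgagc

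Cytokine genes differed widely in size. Of 20 measured inflammatory cytokine genes 10 were higher with LPS and 0 lower, with a median difference of 0.86. After Il12b, the largest was Il6, at 5.46 without LPS and 10.28 with LPS (28.2-fold). Il1b stood at 10.65 and 13.18 (5.76-fold) and Il1a at 10.82 and 13.34 (5.74-fold). Il12a, the p35 subunit that pairs with p40 to form interleukin-12, stood at 6.00 and 8.42 (5.36-fold). Tnf, which is among the earliest cytokine genes that LPS is known to induce, stood at 9.15 and 10.40 after 24 hours (2.37-fold). The alarmin gene Il33 was 3.39-fold, Il18 2.45-fold, Il15 2.38-fold and Ebi3, a subunit of interleukin-27 and interleukin-35, 2.02-fold higher. Il23a, Csf2, Csf3 and Il11 stayed below the filter on both arrays, with differences between -0.18 and -0.08. Il10, the main anti-inflammatory cytokine, was dim as well, at 4.70 and 4.86. Of 17 anti-inflammatory cytokine and inhibitor genes, 2 were higher, the interleukin-18 decoy gene Il18bp (3.16-fold) and Cd274, which encodes PD-L1 (2.16-fold), and the median was 0.06. With quantile normalization repeated the median was -0.04 and 1 gene was counted.

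Chemokine genes showed ligands of CXCR3 in the lead. Of 28 measured chemokine genes 12 were higher and 1 was lower, with a median difference of 0.48. The interferon-gamma-inducible ligands Cxcl9 (5.95 and 11.12), Cxcl11 (6.18 and 10.85, 25.4-fold) and Cxcl10 (6.44 and 10.13, 12.9-fold) attract effector T cells. The neutrophil attractants Cxcl3 (8.47-fold), Cxcl2 (3.92-fold) and Cxcl1 (2.08-fold) were higher too, as were the monocyte attractants Ccl2 (2.91-fold) and Ccl7 (2.35-fold). Ccl5 stood at 11.12 without LPS and 13.91 with LPS (6.92-fold), and Ccl22, a ligand of CCR4, at 12.02 and 13.60 (2.99-fold). Ppbp, a platelet-type chemokine, was the lower one, from 12.27 to 10.54 (3.31-fold); with quantile normalization repeated or cyclic loess 2 were lower. Of 22 genes in the chemokine receptor list, which held the sphingosine phosphate receptor genes S1pr1 and S1pr4, 3 were higher and 2 lower. Ccr4 stood at 6.08 and 9.71 (12.4-fold) and Ccrl2, a receptor-like presenter of chemerin, was 2.37-fold higher. Ccr2, the receptor of Ccl2 on monocytes, was lower, from 11.73 to 10.09 (3.12-fold), and Cxcr4 from 9.32 to 8.26 (2.09-fold).

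Nearly all interferon-stimulated genes were higher. The list held 40 measured genes that type I interferon induces, of which 38 were higher by 2-fold or more and 0 lower, and the median difference was 2.39. Ifit2, an inhibitor of viral translation, stood at 6.95 without LPS and at 11.80 with LPS (28.8-fold), and Rsad2, which encodes viperin, at 8.39 and 13.17 (27.4-fold). Ifit1 (26.1-fold), Ifit3 (25.1-fold) and the nucleotide kinase gene Cmpk2 (19.0-fold) completed the leading 5. The remaining members included Irf7, the factor that amplifies interferon production (10.67 and 13.52, 7.21-fold), the restriction factor genes Mx1 (12.0-fold) and Bst2 (6.56-fold), and the RNA sensor genes Ifih1 (5.11-fold), Dhx58 (5.34-fold) and Ddx58 (3.55-fold). Lgals9 (1.75-fold) and Ifitm3 (1.45-fold), which was already at 13.15 without LPS, were the members not counted. The interferon genes themselves were not higher at this time: Ifnb1 stood at 5.10 and 4.98 and Ifna4 at 5.43 and 5.14, all below the filter. Ifngr1 was the 1 counted gene among 12 interferon and receptor genes, and it was 2.48-fold lower.

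Nearly every second window of this list held an interferon-stimulated response element core. The letters GAAANNGAA, on either strand, matched 48.5% of 33 windows from 28 genes, against 8.6% of the 32851 windows of all genes and 17.2% of 530 windows from the 420 higher genes that had one. The windows of Rsad2 and Ifit1 are shown since these are the members with the largest differences that hold the core, again with matches in capitals. That of Rsad2 lies at chr12:26456403-26456702 on the minus strand of GRCm38.p6, with 1 match that starts at -119. The window of Ifit1 lies at chr19:34640639-34640938 on the plus strand, with 3 matches, at -109, -103 and -84, of which the first pair overlaps. All 4 matches are on the strand opposite to the gene and read as the reverse complement in the printed strand.
Rsad2: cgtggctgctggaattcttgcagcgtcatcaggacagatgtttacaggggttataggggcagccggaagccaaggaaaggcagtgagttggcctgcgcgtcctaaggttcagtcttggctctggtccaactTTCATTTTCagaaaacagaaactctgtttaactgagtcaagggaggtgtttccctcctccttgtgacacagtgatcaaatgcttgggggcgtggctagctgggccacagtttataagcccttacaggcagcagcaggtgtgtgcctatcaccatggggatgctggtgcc
Ifit1: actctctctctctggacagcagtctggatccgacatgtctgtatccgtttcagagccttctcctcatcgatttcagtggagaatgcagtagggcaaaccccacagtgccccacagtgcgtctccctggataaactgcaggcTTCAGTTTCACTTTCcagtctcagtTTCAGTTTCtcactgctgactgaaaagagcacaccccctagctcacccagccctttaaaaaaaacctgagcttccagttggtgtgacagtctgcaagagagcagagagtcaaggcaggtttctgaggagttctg

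Gene families downstream of interferon followed the same direction. All 9 measured guanylate-binding and immunity-related GTPases, which attack vacuoles that hold pathogens, were higher, with a median difference of 3.50. Gbp5 stood at 6.35 and 11.07 (26.4-fold), Gbp4 at 6.95 and 11.46 (22.8-fold) and Iigp1 at 5.21 and 9.26 (16.5-fold), with the reservation that near-identical Gbp genes could share probes. Of 20 Schlafen and Ms4a genes 12 were higher and 0 lower. Slfn4, Slfn1 (13.3-fold), Slfn8 (4.70-fold) and Slfn5 (2.80-fold) belong to the first family, and Ms4a4c, Ms4a6b (16.5-fold), Ms4a6c (10.8-fold) and Ms4a4a (5.89-fold) to the second. Signal transducers of interferon and cytokine receptors had 7 of 19 genes higher and 1 lower. Stat4, which acts below the interleukin-12 receptor, stood at 5.50 and 8.99 (11.2-fold), Jak2 at 9.31 and 11.62 (4.94-fold) and Stat2 at 9.46 and 11.59 (4.38-fold). The feedback inhibitor genes Socs3 (5.46-fold) and Socs1 (5.13-fold) were higher and Socs6 was lower (2.14-fold). A dimmer probe set of Socs3 differed by 0.73 instead of 2.45, and with means of probe sets Socs6 was no longer counted. Of 10 genes in the interferon regulatory factor list, which held the binding protein genes Irf2bp1 and Irf2bp2, 3 were higher, Irf7, Irf8 (2.26-fold) and Irf1 (2.01-fold). A dimmer probe set of Irf1 differed by 0.23 instead of 1.01, and 2 of these genes were counted with quantile normalization repeated, cyclic loess or means of probe sets. Cytosolic sensors and inflammasome genes had 7 of 21 higher and 0 lower, led by Ifi205 (14.4-fold), which has near-identical relatives, Casp4, the caspase that senses cytosolic LPS (4.04-fold), and Casp1 (3.41-fold).

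**Figure D3:**
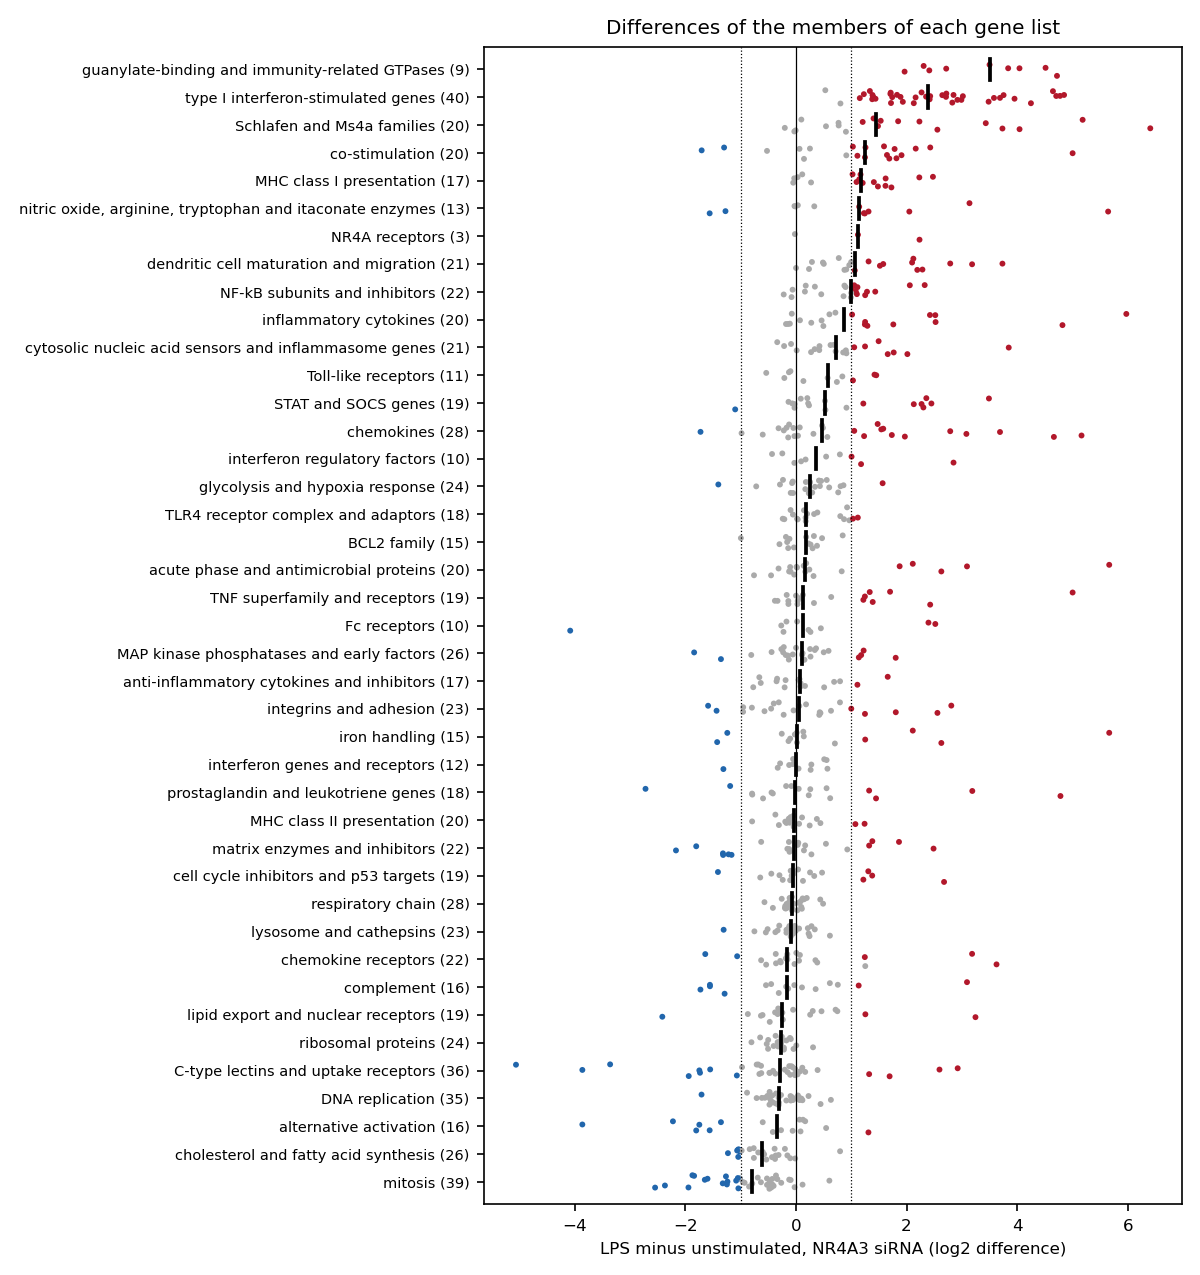
LPS minus unstimulated (log2 difference, x axis) for the measured members of 41 gene lists under NR4A3 siRNA, ordered by the list median (black bars), with the number of measured members in brackets. Red and blue points are members counted as at least 2-fold higher or lower; the GTPases and type I interferon-stimulated genes have the highest medians, 3.50 and 2.39, and mitosis genes the lowest, -0.79.

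Most genes of the co-stimulation list, which also held checkpoint genes, were higher. Of 20 measured genes 13 were counted as higher and 2 as lower, and the median difference was 1.25. The 13 included Cd274 (2.16-fold), also counted above among inhibitor genes, and Cd200 (3.02-fold). Cd40, the receptor through which helper T cells license dendritic cells, stood at 7.27 without LPS and at 12.28 with LPS. The B7 ligand genes Cd86 (8.62 and 10.44, 3.52-fold) and Cd80 (9.89 and 11.53, 3.13-fold) and the ICOS ligand gene Icosl (8.07 and 9.98, 3.76-fold) were higher, as were the adhesion receptor gene Slamf1 (5.38-fold), Tnfsf15 (4.49-fold) and Tnfsf4, the OX40 ligand (3.44-fold). The lower ones were Tnfsf14, which encodes LIGHT, from 8.47 to 6.77 (3.26-fold), and the checkpoint gene Vsir, from 12.13 to 10.83 (2.46-fold). Among 19 genes of the TNF superfamily and its receptors 7 were higher and 0 lower, including Tnfsf10, encoding TRAIL (5.38-fold), the B cell survival factor gene Tnfsf13b (3.25-fold), Tnfsf8 (2.62-fold), Tnfrsf9 (2.52-fold) and the death receptor gene Fas (2.33-fold).

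Genes of mature, migrating dendritic cells were next. Of 21 measured genes 11 were counted as higher and 0 as lower, and the median difference was 1.06. Fscn1, the actin bundler of dendrites, stood at 8.95 without LPS and at 12.68 with LPS (13.3-fold). Ccr7 stood at 9.46 and 12.64 (9.10-fold), and the maturation marker Cd83 at 8.44 and 10.63 (4.58-fold). Zmynd15 (4.88-fold), Serpinb6b (4.36-fold), Nudt17 (4.29-fold), Marcksl1 (2.87-fold), Mreg (2.49-fold) and Tmem123 (2.09-fold) were counted as well, and Tbc1d4 stood at 7.41 on both arrays. With control siRNA the same list had 5 genes higher and 1 lower, and a median of 0.60. The unstimulated level was where the siRNAs were farthest apart. The median level of the list was 9.06 without LPS and 10.63 with LPS under NR4A3 siRNA, against 10.98 and 11.49 under control siRNA. The members, Ccr7 and Fscn1 among them, were chosen with earlier results of these data known, so this gap may partly reflect that choice.

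**Figure D4:**
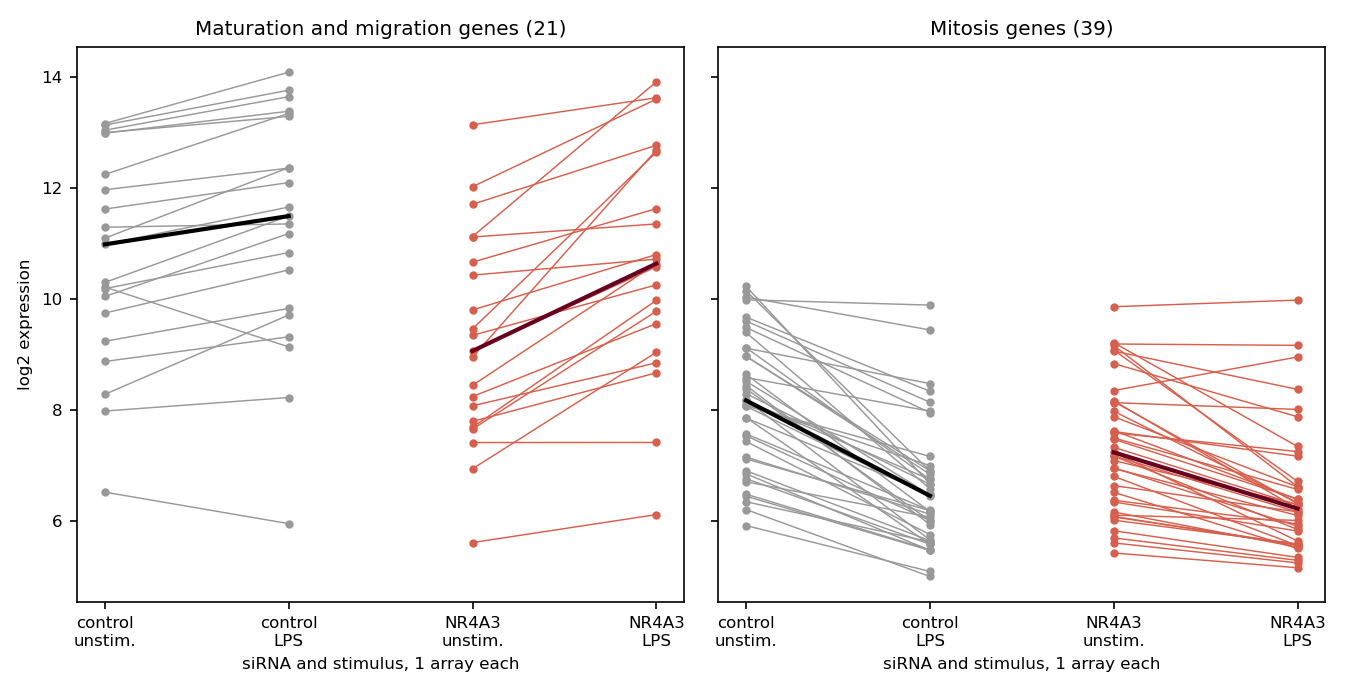
Levels (log2 expression, y axis) of 21 maturation and migration genes (left) and 39 mitosis genes (right) on the 4 arrays, 1 array for each siRNA and stimulus. Thin lines join the unstimulated and LPS arrays of a gene and thick lines join the list medians. The medians with NR4A3 siRNA start lower, at 9.06 and 7.23, than with control siRNA, at 10.98 and 8.17. Both lists were chosen with earlier results of these data known.

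Antigen presentation split by class. Of 17 MHC class I pathway genes 12 were higher and 0 lower, with a median of 1.17. They covered the peptide transporter genes Tap1 (9.17 and 11.41, 4.70-fold) and Tap2 (2.25-fold), the immunoproteasome genes Psmb9 (3.08-fold), Psmb8 (3.07-fold) and Psmb10 (2.66-fold), the proteasome activator genes Psme2 (2.79-fold) and Psme1 (2.03-fold) and the peptide editor gene Tapbpl (3.31-fold). H2-Q4 had the largest difference (5.57-fold), although class I genes are near-identical. B2m, already at 13.46 without LPS, stood at 13.57, and the chaperone genes Canx, Calr and Pdia3 differed by -0.05 to 0.03. Of 20 MHC class II pathway genes, cathepsin and Rfx factor genes included, 2 were higher (1 with quantile normalization repeated). They were H2-Oa (2.36-fold) and H2-Ob (2.11-fold), which form the inhibitor of peptide exchange DO. The list median was -0.04. The exchange factor gene H2-DMa had the lowest value, from 12.25 to 11.46, and the class II activator gene Ciita stood at 8.78 and 8.75.

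Enzymes that make inflammatory mediators differed in a branch-specific way. Among 13 genes of nitric oxide, arginine, tryptophan and itaconate metabolism 7 were higher and 2 lower. Besides Nos2, the itaconate enzyme gene Acod1 stood at 10.52 and 13.66 (8.80-fold), the arginine transporter gene Slc7a2 at 10.70 and 12.75 (4.14-fold), and Gch1, which supplies the cofactor of nitric oxide synthase, at 7.45 and 8.70 (2.37-fold). The tryptophan-degrading enzyme genes Ido1 (2.48-fold), Ido2 (2.34-fold) and Kynu (2.21-fold) were higher. Arg1, which competes for arginine, was lower, from 9.99 to 8.43 (2.95-fold), and so was Kmo (2.42-fold). In the eicosanoid list of 18 genes 4 were higher and 2 lower. The cyclooxygenase gene Ptgs2 stood at 6.69 and 11.47 (27.5-fold) and the prostaglandin E synthase gene Ptges at 7.53 and 10.72 (9.12-fold), while the 5-lipoxygenase gene Alox5 stood at 10.15 and 7.43 (6.59-fold lower) and the prostaglandin D synthase gene Hpgds was 2.28-fold lower. Acute phase and antimicrobial genes had 5 of 20 higher and 0 lower: Lcn2, the complement factor gene Cfb (8.53-fold), the iron hormone gene Hamp (6.19-fold), the ferroxidase gene Cp (4.33-fold) and Saa3 (3.67-fold). In the iron list of 15 genes, where Lcn2, Hamp and Cp also belong, the exporter gene Slc40a1, the target of the hormone, was 2.68-fold lower and Steap3 2.36-fold lower.

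Uptake receptors were lower more often than higher. Of 36 C-type lectin and uptake receptor genes 8 were at least 2-fold lower and 4 higher, with a median difference of -0.29. After Cd209a, Mrc1 and Cd209d, the lower ones were Clec10a (8.06 and 6.12, 3.83-fold) and its paralogue Mgl2 (10.33 and 8.58, 3.36-fold), Clec4b1 (3.33-fold), Clec9a, a receptor for dead cells (2.93-fold), and Colec12 (2.10-fold). The higher ones were the scavenger receptor gene Marco (6.11 and 9.04, 7.59-fold), Clec4e, the mincle receptor of mycobacterial lipids (10.80 and 13.40, 6.04-fold), Ly75, which encodes DEC-205 (8.30 and 10.00, 3.23-fold), and Scarf1 (2.50-fold). Of 10 Fc receptor genes 2 were higher, the high-affinity IgG receptor gene Fcgr1 (9.22 and 11.74, 5.74-fold) and the cytosolic receptor gene Trim21 (5.26-fold), and Fcrls was lower.

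Some genes of alternative activation, and all measured C1q chain genes, were lower. Of 16 alternative activation genes 6 were lower and 1 was higher, with a median difference of -0.34. Mrc1, Retnla (10.33 and 8.10, 4.67-fold), Fn1 (13.91 and 12.11, 3.49-fold), Mgl2, Arg1 and the transcription factor gene Klf4 (2.56-fold) were the lower ones, and the transglutaminase gene Tgm2 the higher one (2.48-fold). The C1q chain genes, whose products bind immune complexes, went together: C1qa stood at 9.15 and 7.60 (2.94-fold lower), C1qb at 11.40 and 9.85 (2.94-fold lower) and C1qc at 10.67 and 8.94 (3.31-fold lower). The receptor gene C5ar1 was 2.45-fold lower, so that 4 of 16 complement genes were lower and 2 higher, Cfb and C1s1 (2.20-fold). The nuclear receptor gene Pparg, which promotes lipid uptake and alternative activation, stood at 10.15 and 7.73, and Ch25h, which makes 25-hydroxycholesterol, at 6.21 and 9.46 (9.49-fold higher). Matrix enzyme genes had 4 of 22 higher, led by Mmp25 (5.61-fold) and Timp1 (3.64-fold), and 6 lower, led by Mmp19 (4.50-fold). Macrophage markers moved in both directions in the same pair of arrays, with 3 of 16 higher (Siglec1, Fcgr1 and Adgre1) and 4 lower (Mrc1 and the C1q genes), and monocyte markers had 1 of 10 higher and 3 lower; the part of cell composition in these differences was not tested.

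Fewer mitosis genes were counted as lower than with control siRNA. Of 39 measured genes 15 were at least 2-fold lower and 0 higher, with a median difference of -0.79, and 13 never reached the filter. The B-type cyclin gene Ccnb2 stood at 9.16 without LPS and at 6.61 with LPS (5.84-fold lower), the cyclin gene Ccna2 at 9.08 and 6.71 (5.17-fold lower) and the mitotic kinase gene Plk1 at 8.16 and 6.22 (3.85-fold lower). The centromeric histone gene Cenpa (3.66-fold) and Ube2c, the ubiquitin carrier of the anaphase-promoting complex (3.58-fold), followed. Mki67, Bub3 and no other member had a positive difference, 0.60 and 0.12. Under control siRNA 27 genes were lower and the median was -1.38. The list's median level without LPS was 7.23 under NR4A3 siRNA and 8.17 under control siRNA. With LPS it was 6.22 and 6.45, so that the siRNAs lay closer together than without LPS. Both medians with LPS lay below the filter, where folds are approximate. The part of this limit in the closer levels and in the smaller median difference was not tested. DNA replication genes differed less: 1 of 35 was lower, the ribonucleotide reductase gene Rrm2 (9.11 and 7.40, 3.27-fold), and the median was -0.31. The proto-oncogene Myc was 3.58-fold lower, from 9.08 to 7.24.

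Promoters of mitosis genes held the element pair known from cell cycle-dependent genes. The CHR core TTTGAA, on either strand, was in 81.1% of 37 windows and the CCAAT box in 73.0%, against 17.9% and 37.4% of all windows. A high share of CCAAT boxes was not particular to this list. Cholesterol and fatty acid synthesis genes held the box in 76.0% of 25 windows and the CHR core in 12.0%. Windows with both elements were not counted. The windows of Ccnb2 and Plk1 are shown because these genes had the largest differences of the list with such matches. That of Ccnb2 lies at chr9:70421505-70421804 on the minus strand of GRCm38.p6, with CCAAT at -87, -54 and -21 and TTTGAA at -167 and 5. The window of Plk1 lies at chr7:122159185-122159484 on the plus strand, with CCAAT at -14 and TTTGAA at 31.
Ccnb2: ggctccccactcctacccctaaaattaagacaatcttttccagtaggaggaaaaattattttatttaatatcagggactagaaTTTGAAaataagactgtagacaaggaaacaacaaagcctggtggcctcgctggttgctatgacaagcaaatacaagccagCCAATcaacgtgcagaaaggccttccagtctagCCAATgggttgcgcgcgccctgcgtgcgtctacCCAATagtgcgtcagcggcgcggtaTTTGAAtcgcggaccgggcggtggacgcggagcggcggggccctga
Plk1: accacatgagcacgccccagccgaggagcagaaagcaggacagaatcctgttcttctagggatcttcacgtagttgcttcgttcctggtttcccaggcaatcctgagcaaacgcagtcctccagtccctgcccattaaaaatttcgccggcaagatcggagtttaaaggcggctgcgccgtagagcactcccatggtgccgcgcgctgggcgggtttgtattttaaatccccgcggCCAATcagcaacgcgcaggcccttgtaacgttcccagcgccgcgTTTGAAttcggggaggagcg

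In cholesterol and fatty acid synthesis a minority of the genes were lower by 2-fold or more. Of 26 measured genes 7 were at least 2-fold lower and 0 higher, with a median difference of -0.61. Fasn, the fatty acid synthase gene, stood at 9.52 and 8.29 (2.35-fold lower), and the sterol transporter gene Stard4 (2.09-fold), the squalene enzyme genes Sqle (2.06-fold) and Fdft1 (2.04-fold), the feedback regulator gene Insig1 (2.06-fold), Cyp51 (2.02-fold) and Fdps (2.02-fold) lay just past 2-fold. Pmvk opposed the list at 0.80. Under control siRNA 11 genes were counted as lower and 1 as higher, and the median was -0.90. A sterol regulatory element core, TCACNCCAC, was rare in both sets: 4.0% of 25 windows of the list and 1.2% of all windows held it. The 1 window was that of Hmgcs1, the synthase at the start of the pathway, which stood at 9.76 and 8.99 (1.69-fold lower). It lies at chr13:119690101-119690400 on the plus strand of GRCm38.p6, with the match at -137.
Hmgcs1: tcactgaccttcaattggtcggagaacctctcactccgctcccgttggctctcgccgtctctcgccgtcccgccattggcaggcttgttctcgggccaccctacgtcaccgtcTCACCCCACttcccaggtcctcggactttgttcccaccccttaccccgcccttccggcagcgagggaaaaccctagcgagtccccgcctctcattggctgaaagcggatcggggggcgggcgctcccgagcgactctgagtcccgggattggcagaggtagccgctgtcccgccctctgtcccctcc

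Several housekeeping groups had few or no genes past 2-fold. No gene among 24 ribosomal protein genes (median -0.27), 28 respiratory chain genes (median -0.07) or 15 BCL2 family genes (median 0.19) reached 2-fold in either direction. However, 1 BCL2 family gene was counted as lower with quantile normalization repeated or cyclic loess. Over all genes 2.76% were counted as higher and 1.41% as lower, so lists of this size would hold few counted genes anyway. All ribosomal protein genes but Rpl24 and Rps20 had a negative difference. Glycolysis and hypoxia genes had 1 of 24 higher, the glycolytic regulator gene Pfkfb3 (8.12 and 9.69, 2.96-fold), 1 lower, the aldolase gene Aldoc (2.65-fold), and a median of 0.25. Of 23 lysosomal and cathepsin genes only Ctse was counted, 2.48-fold lower. The early factor genes measured at 24 hours were mixed, with 4 of 26 higher, led by the phosphatase gene Dusp4 (3.49-fold), and 2 lower, Myc and Klf4. Integrin and adhesion genes had 5 of 23 higher, led by the TGF-beta-activating integrin gene Itgb8 (7.01-fold) and Jam2 (5.89-fold), and 2 lower, Itgb5 (3.01-fold) and Itga6 (2.70-fold). In the p53 and cell cycle inhibitor list, 4 of 19 were higher, with the stress gene Gadd45b (6.40-fold) first, and Sesn1 was 2.66-fold lower.

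The response was set beside that with control siRNA, which shares no array with it. With control siRNA 517 genes were higher (2.59%) and 396 lower (1.99%). Of the genes higher with LPS, 404 were counted under both siRNAs, which is 73.5% of the list with NR4A3 siRNA and 78.1% of the list with control siRNA. Of the genes lower with LPS, 222 were counted under both, 79.0% of the list with NR4A3 siRNA and 56.1% of the list with control siRNA. Many genes counted under 1 siRNA alone were counted in the same direction at 1.5-fold under the other. Among genes higher only with NR4A3 siRNA this held for 105 of 145, and among those higher only with control siRNA for 64 of 113. Among genes lower only with NR4A3 siRNA it held for 34 of 59, and among those lower only with control siRNA for 110 of 173. The rest were not counted in that direction at 1.5-fold under the other siRNA. Opposite directions at 2-fold were found for 1 gene, Cldn1. By group, type I interferon-stimulated genes had 38 of 40 higher under either siRNA (medians 2.39 and 2.18), and inflammatory cytokines 10 and 11 of 20 (medians 0.86 and 1.35). The difference between the responses has no replicate and was not tested.

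**Figure D5:**
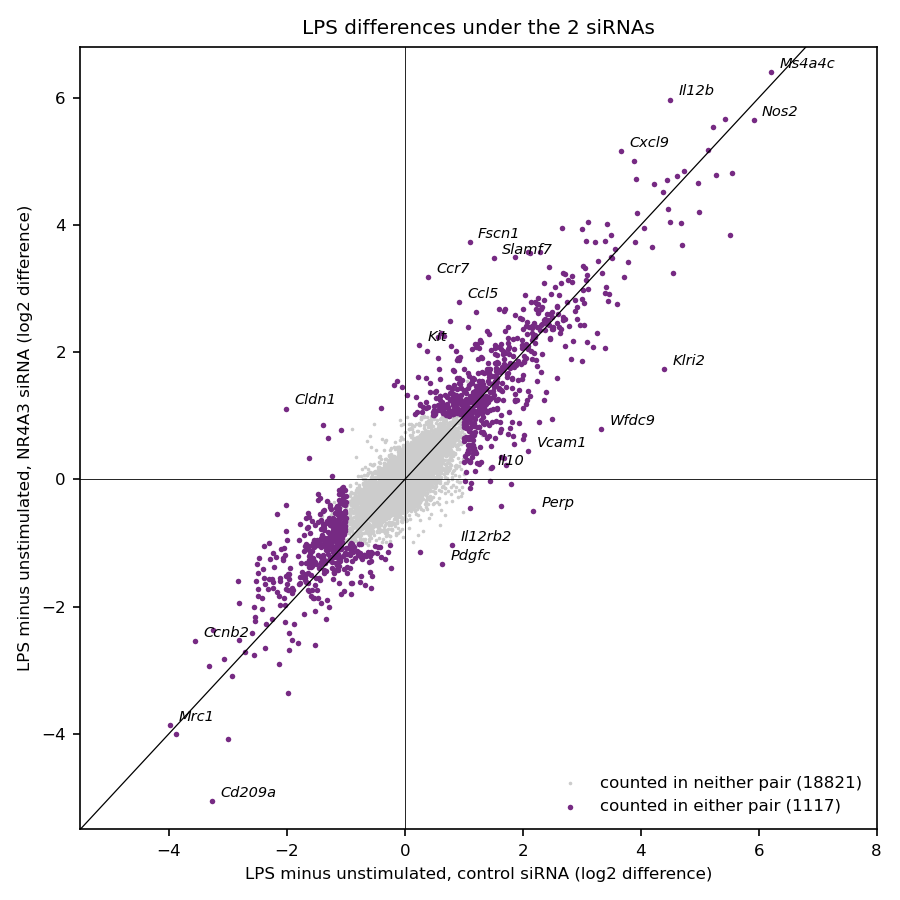
LPS minus unstimulated (log2 difference) with control siRNA (x axis) and with NR4A3 siRNA (y axis) for 19938 genes, from 2 pairs of arrays that share no array; purple points are the 1117 genes counted in either pair and the diagonal marks equal differences. Most purple points have the same sign on both axes; Ccr7 and Fscn1 lie far above the diagonal at 3.19 and 3.73 on the y axis, and Cldn1 has opposite signs.

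The genes whose LPS difference was most larger with NR4A3 siRNA had a lower unstimulated level with it. Cldn1, a tight junction protein gene, stood at 7.73 and 8.84 under NR4A3 siRNA and at 9.57 and 7.55 under control siRNA. Ccr7 stood at 9.46 and 12.64 against 12.99 and 13.38, and Fscn1 at 8.95 and 12.68 against 12.24 and 13.34. For both genes the LPS-treated cells lay within 0.74 of each other and the unstimulated cells 3.29 or more apart. P3h2, Slamf7, Aoc1, Ndnf, the stem cell factor receptor gene Kit, Ccl5 and Adam23 were the other 7 of the 10, with differences of LPS differences between 1.85 and 2.23. In all 10 the unstimulated level was lower with NR4A3 siRNA, by log2 values from -3.53 to -1.09. P3h2, Aoc1, Ndnf and Kit lay below the filter there, and Aoc1 and Ndnf also with LPS, at 5.92 and 5.84. Aoc1 and Ndnf reached the filter only on the unstimulated array with control siRNA. Aoc1, Ndnf, P3h2 and Adam23 differed with LPS by 0.33, 0.66, 0.85 and 0.77 under NR4A3 siRNA. Under control siRNA they were lower with LPS, by -1.63, -1.29, -1.38 and -1.08. The ranking itself favours genes with a low value on the unstimulated array with NR4A3 siRNA, because such a value, from any source, enlarges the LPS difference. Near the top of the scale differences can be compressed, which bears on Ccl5 at 14.09 and Ccr7 at 13.38.

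The genes whose LPS difference was most smaller, or more negative, with NR4A3 siRNA mostly differed on the LPS array instead. Klri2, a lectin-like receptor gene with near-identical relatives, stood at 4.67 and 6.41 under NR4A3 siRNA and at 5.99 and 10.39 under control siRNA. Perp, a p53-induced membrane protein gene, stood at 6.57 and 6.06 against 6.49 and 8.67, and Wfdc9 at 5.63 and 6.42 against 5.49 and 8.82. Vcam1, the ligand of the integrin VLA-4, stood at 7.26 and 7.70 against 7.26 and 9.36. Unstimulated levels of Perp, Wfdc9 and Vcam1 thus differed by at most 0.14 between the siRNAs. Il12rb2, a chain of the receptor for interleukin-12, stood at 8.71 and 7.68 against 9.45 and 10.25, and the growth factor gene Pdgfc at 7.56 and 6.23 against 7.49 and 8.12, so that both were lower with LPS under NR4A3 siRNA and higher under control siRNA. C1ql3, Adig, Ifi205 and Cd209a completed the 10. Cd209a differed in its unstimulated level, 10.87 against 8.90. This ranking likewise favours genes with a low value on the LPS array, or a high one on the unstimulated array, with NR4A3 siRNA. Klri2, Perp, Wfdc9, C1ql3 and Adig lay below the filter on both arrays with NR4A3 siRNA and on the unstimulated array with control siRNA. Only genes counted under either siRNA were ranked, so these entered through the LPS array with control siRNA alone. For them a difference on the LPS array was fixed by that rule.

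The NBRE element was no more frequent in promoters of the responding genes. The letters AAAGGTCA, on either strand, were in 0.6% of 530 windows of genes counted as higher and in 0.8% of 266 windows of genes counted as lower, against 1.3% of 19177 windows of all measured genes. These windows end 250 bases before the gene start, so more distant sites were not searched. Among the gene lists, STAT and SOCS genes had the most matches, in 3 of 17 windows.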

How the data were processed

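Total RNA of 4 samples was hybridised to 1 Affymetrix Mouse Gene 1.0 ST array each. The values deposited by the authors are on a log2 scale after RMA and quantile normalization, per the labels, so a shift common to most genes would be hidden. Affymetrix Expression Console 1.1 is given in the submitters' processing notes and GeneSpring in the design text. The genome build used by the authors is not given in the sources used here.

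Of 28856 probe sets, 21789 had 1 gene symbol in the platform annotation, 1621 had several and 5446 had none; the last 2 kinds were not used. RefSeq held 21698 of the single-symbol probe sets, and 0 symbols were updated. This left 19938 genes, 999 with several probe sets, of which the brightest by mean level was taken.

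Each difference is that of 2 arrays, with its power of 2 as the fold and no test. A gene was counted at 2-fold or more when its brighter array reached 6.66. Files held 0 further sample columns. The 54 lists (977 of 1095 entries measured) and the members were chosen with earlier results of these data known. Named genes are the Nr4a family, the 20 most higher and 20 most lower, up to 5 members of a list with the largest differences and those opposing it, the 10 per direction for the difference of LPS differences, and those of opposite direction at 1.5-fold. The ranking by the difference of LPS differences covered only genes counted under either siRNA. Further list members were named after their values were seen. Gene models, clones, small RNAs, receptor segments and pseudogenes were left out of the ranks. Promoter windows are RefSeq's for GRCm38.p6, without regard to the array's build. Alternatives were median centring, repeated quantile normalization, cyclic loess (limma 3.58.1 in R 4.3.3), other folds and filters, probe set means and list variants. The counting was tested on simulated data (numpy 2.4.6, pandas 2.3.3). The number of arrays limits the precision.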

Additional observations from a re-analysis of the deposited data

Results flagged for a closer look

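For 7 genes the LPS difference had opposite signs under the 2 siRNAs at 1.5-fold or more, with 1 array for each condition; none of these differences was tested. Lower with LPS under NR4A3 siRNA were Pdgfc, a platelet-derived growth factor gene (-1.33, against 0.63 with control siRNA), the interleukin-12 receptor gene Il12rb2 (-1.03 against 0.81) and the hypoxia-induced gene Ndrg1 (-0.72 against 0.60). Higher with LPS under NR4A3 siRNA were the tight junction gene Cldn1 (1.11 against -2.01), the collagen hydroxylase gene P3h2 (0.85 against -1.38), Adam23 (0.77 against -1.08) and the proliferation marker gene Mki67 (0.60 against -0.64). Pdgfc with LPS and P3h2 without LPS lay below the level filter under NR4A3 siRNA.

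Among the 7067 probe sets without exactly 1 gene symbol, which entered no comparison, 98 were at least 2-fold higher with LPS under NR4A3 siRNA and 42 at least 2-fold lower. Both are smaller shares than among the 19938 genes, of which 2.76% were higher and 1.41% lower.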

How the results depend on the processing

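Some list medians near 0 changed sign: the anti-inflammatory list gave -0.04 and integrins -0.09 with quantile normalization repeated, and over members past the filter interferon genes and receptors gave 0.16 and eicosanoid genes 0.14. At 1.5-fold 1070 genes were higher, 712 lower and 1361 shared the direction under both siRNAs; at 3-fold the counts were 278, 80 and 270. Other settings kept each count within 1.5 times: 500 to 567 higher, 272 to 317 lower and 616 to 637 shared, except that a filter at 8.67 left 433, 193 and 463. With quantile normalization repeated over the genes, list medians were 0.89 for NF-kB, 0.40 for STAT and SOCS genes, 2.27 for type I interferon-stimulated genes and 1.01 for the nitric oxide to itaconate enzymes. Over members with a mean level past the filter, medians were 2.04 for Schlafen and Ms4a genes, 1.29 for inflammatory cytokines, 1.14 for chemokines, 1.19 for maturation and migration, 0.74 for nitric oxide to itaconate enzymes, -0.41 for uptake receptors and -1.04 for mitosis. Without the farthest member, they were 0.38 for STAT and SOCS genes, 3.67 for GTPases, 0.71 for inflammatory cytokines, 0.74 for nitric oxide to itaconate enzymes and 1.68 for the NR4A family. Means of probe sets gave 0.85 for cytosolic sensors and -0.69 for mitosis. Of 271 named genes, the LPS difference moved by over 0.1 for 65 with quantile normalization repeated (changes from -0.15 to 0.06) and for 4 with means of probe sets (the largest -0.86). Of 52 list medians 22 moved over members past the filter, by -2.14 to 1.76. The cause of these shifts was not tested, beyond the fewer members in the filtered and trimmed lists.

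No paired analysis was possible because each condition has 1 array and no replicate numbers. Arrays without replicates cannot separate the treatment from the spread between cultures. Quantile normalization hides a shift common to most genes. Genes below 6.66 on 1 array have approximate folds, and those near 14 can be compressed. Near-identical genes of the Cd209, Gbp, Klk1b, Klri, Ifi200 and MHC class I families may share probes.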

Other observations

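Further gene families, chosen after their values were seen and partly overlapping the lists above, also had members that differed with LPS under NR4A3 siRNA. Of 10 measured genes of the interferon-inducible p200 family, which holds cytosolic DNA sensors, 7 were higher by 2-fold or more and 0 lower: Ifi205 at 7.51 and 11.36, Ifi214 at 6.49 and 10.22, Ifi209 at 7.89 and 10.69 and Ifi202b at 8.57 and 11.04; their near-identical sequences may share probes. Of 11 Parp genes, which encode ADP-ribosyltransferases, 6 were higher, led by Parp10 (4.24-fold), Parp11 (3.73-fold) and Parp14 (3.71-fold), while Parp1, the DNA repair enzyme gene, stood at 8.27 and 8.18. Of 5 Slamf genes 3 were higher: Slamf7 stood at 7.85 and 11.33 (11.2-fold), Slamf6 at 6.84 and 10.04 (9.21-fold) and Slamf1 was 5.38-fold higher. Of 6 Siglec genes, which encode sialic acid-binding lectins, 2 were higher, Siglece (10.7-fold) and Siglec1 (10.2-fold), and the family median was 0.15. In the Cd300 family of mostly inhibitory or lipid-binding receptors, 4 of 8 genes were lower, Cd300lg (3.36-fold), Cd300ld (3.08-fold), Cd300a (2.80-fold) and Cd300lb (2.01-fold), and Cd300e was 2.91-fold higher. Among 15 genes of the circadian clock and its output, 3 were lower: the repressor genes Nr1d1 (9.28 and 7.38, 3.74-fold) and Nr1d2 (2.01-fold) and the output factor gene Dbp (8.69 and 6.98, 3.26-fold). With control siRNA Dbp stood at 7.45 and 6.89, and the harvest time of unstimulated cells is not given.

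Of 291 measured miRNA genes 1 was higher and 1 lower, again chosen after the values were seen. Over all genes the shares were larger, with 2.76% higher and 1.41% lower. The probe set of Mir155, whose product is known as a regulator of dendritic cell activation, stood at 5.91 without LPS and 8.56 with LPS (6.26-fold higher), against 6.31 and 9.20 with control siRNA. That of Mir181b-1 stood at 6.91 and 5.76 (2.22-fold lower). The probes measure transcript from the gene, not the mature arm, and the arms are shown so that their seeds can be compared. Per RefSeq on GRCm38.p6, miR-155-5p lies at chr16:84714143-84714165 and miR-181b-5p at chr1:137966650-137966673, both on the plus strand; the seed, bases 2 to 8, is in capitals and is not shared between them.
mmu-miR-155-5p: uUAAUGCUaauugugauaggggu
mmu-miR-181b-5p: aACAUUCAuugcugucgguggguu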
